A study of Gorilla gorilla with 12 samples.

Results

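Integrins are receptors of the cell surface that hold cells to the extracellular matrix, and each is built of an alpha and a beta subunit. The 10 subunits described here were chosen by gene symbol as those of matrix receptors, namely ITGA1, ITGA2, ITGA3, ITGA5, ITGA6, ITGA7, ITGAV, ITGB1, ITGB3 and ITGB5. All probe sets to which the array's annotation gives 1 of these symbols and no other were taken, 22 of the 12625 probe sets on the array, or 10 of its 8229 genes. Of these, 15 probe sets of 9 genes passed a filter on low values and were tested.

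The RNA came from cultured gorilla fibroblasts, and each array held 1 culture. There were 5 lines from males of 19, 26, 24, 18 and 3 years (male 1 to 5) and 6 lines labelled as from females of 19, 19, 35, 26, 30 and 2 years (female 1 to 6), all harvested under the same standard conditions. A second culture of male 2, the 26-year-old, was harvested at 50% confluence, when cells cover only part of the dish. The labels call every donor normal, each standard array is another animal, and the labels give no batch, passage or skin site.

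A beta subunit pairs with several alpha subunits, and the pair decides what a cell can hold on to. With ITGB1, the alpha subunits of ITGA1 and ITGA2 bind collagen, those of ITGA3, ITGA6 and ITGA7 bind laminin, and that of ITGA5 binds fibronectin. ITGAV forms receptors with ITGB1, ITGB3 or ITGB5 that bind the short RGD motif of fibronectin and vitronectin. On the inside of the membrane the beta tails bind talin and kindlin, which link integrins to actin at focal adhesions, the plaques by which fibroblasts in culture grip their dish. In the gorilla gene table used for names, ITGA1 and ITGA2 are direct neighbours.

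Values are intensities, the brightness of a probe set on a linear scale, with a floor of 100 in the deposited files, below which nothing is known of a level. The probes were designed on human sequence, so no level of a gene or probe set is read against that of another. The share of probe sets at the floor was 40.1% to 49.2%, and 3' over 5' intensity, which rises as RNA degrades, was 0.821 to 1.34 by GAPDH and 0.672 to 1.19 by ACTB. Of 10 fibroblast markers on the array, 9 passed the filter. Of the markers of other cells, 3 of 7 epithelial, 1 of 6 endothelial and 3 of 5 leukocyte genes did. So did 3 of 3 melanocyte genes and 1 of 2 Schwann cell genes. VWF of endothelium, PTPRC and LCP1 of leukocytes and KRT5, KRT14 and KRT19 of epithelium were at the floor on all 11 standard arrays. With signal were KRT8 of epithelium, at 882 to 1662, CD14 of monocytes, at 100 to 1673, CD68 of macrophages, at 420 to 1080, CD3E of T cells, at 140 to 252, and TEK of endothelium, at 100 to 327. CDH1 and KRT18 of epithelium had 100 to 199 and 100 to 362. The melanocyte genes MLANA, TYR and PMEL had 106 to 247, 100 to 212 and 100 to 433, and SOX10 of Schwann cells had 100 to 268. The part of other cells in the integrin values was not tested. RPS4Y1, a gene of the Y chromosome, had 2662 to 4363 in the 5 male lines. It had 100 to 115 in 5 of the female lines but 2595 in the line labelled female 3. That goes against the label, so results are also given without that line. XIST, the other gene chosen to check the sex labels, was at the floor on 10 of the 11 standard arrays, with 131 in female 5. It could therefore not check the labels. Bulk RNA cannot tell apart fewer cells of a kind and less RNA per cell.

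The subunits fell into those with clear signal on every array and those near the floor. ITGA5, ITGB1 and ITGB5 had probe sets that never went below 1009 on any of the 12 arrays. ITGA2 was at 100 in all of its values except 103 for the probe set 1978_at in female 2, so it was not tested. These readings bound the signal of its probe sets and not the level of its RNA, since the probes were designed on human sequence. In ITGB1, ITGB3, ITGA6 and ITGAV, 5 further probe sets stood at or near the floor and were left out of the tests while another probe set of the same gene had signal. The plot of intensities by line shows a value for every line and subunit.

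**Figure D1:**
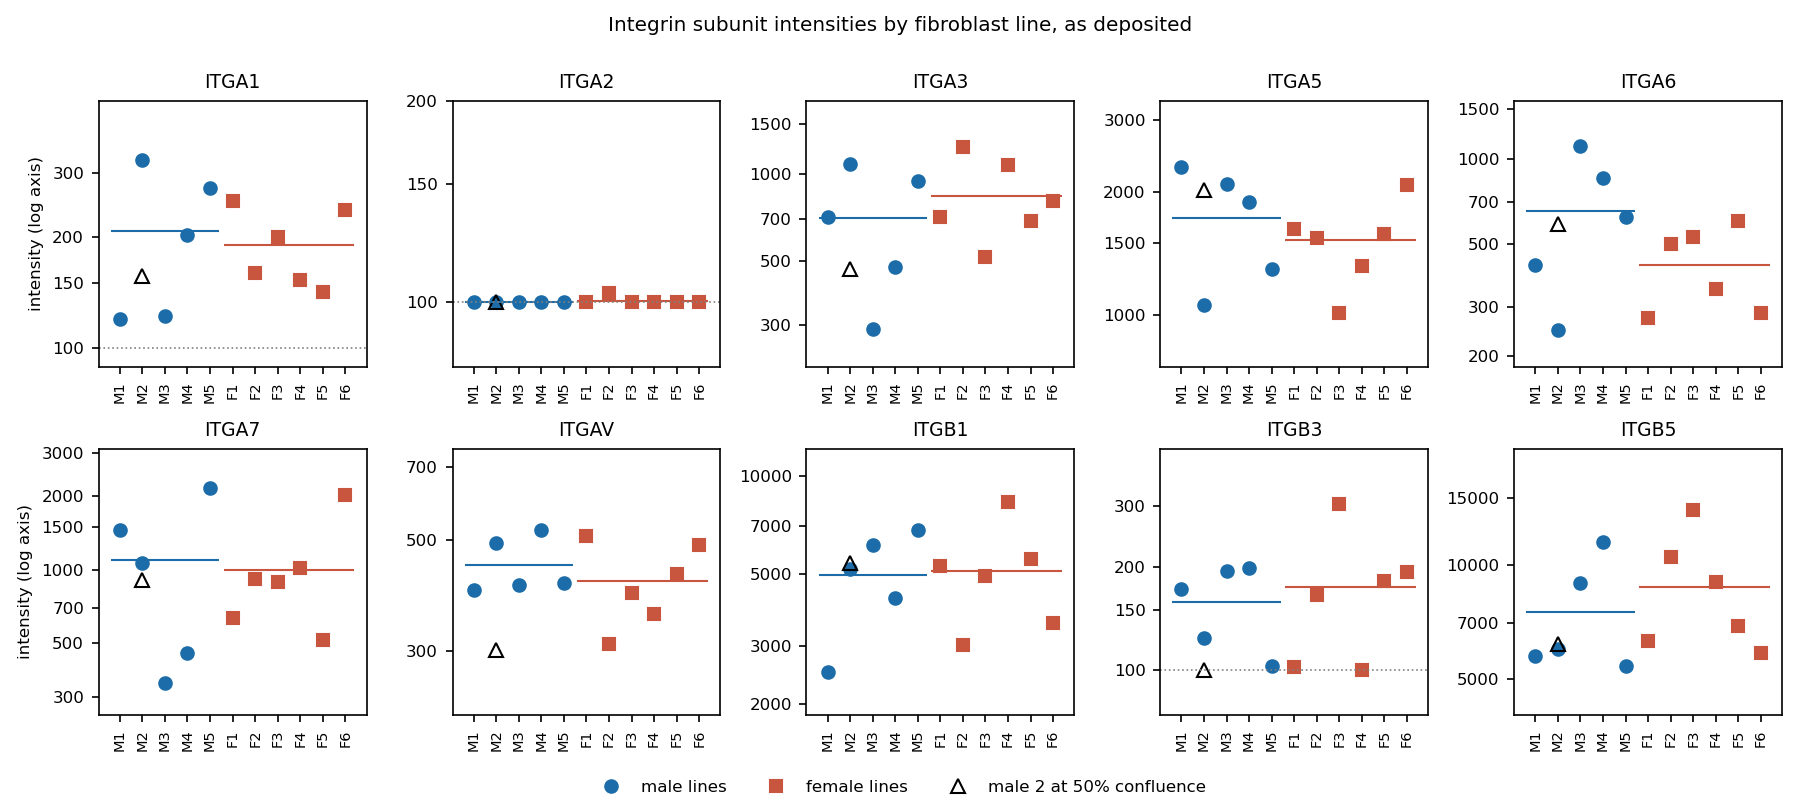
Deposited intensity (log axis, scaled separately in each panel) of 1 probe set for each of the 10 integrin subunits in 5 male lines (M1 to M5, circles), 6 lines labelled female (F1 to F6, squares) and male 2 at 50% confluence (triangle). Horizontal lines are means of the male and of the female lines, the dotted line is the floor of 100, and in 9 of 10 panels the lines of both sexes overlap over much of their range while ITGA2 lies at the floor.

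Among the collagen receptors, ITGA1 was dim and varied several-fold between lines. Its probe set 120_at had 120, 325, 122, 203 and 272 in male lines 1 to 5 and 251, 160, 201, 153, 142 and 237 in female lines 1 to 6, a mean of 208.4 ± 90.8 (SD, n = 5) and 190.7 ± 46.1 (SD, n = 6). Its probe set 37484_at had 104, 268, 100, 100 and 384 in the male lines and 322, 170, 216, 146, 128 and 386 in the female lines. In both, male 2, male 5, female 1 and female 6 were the 4 highest lines, male 1 and male 3 were among the lowest, and the sexes overlapped. The 2 probe sets ran together over the 11 lines, with Pearson's r = 0.79 and Spearman's rho = 0.78 (permutation test, adjusted p = 0.00948 over 6 same-gene pairs) and r = 0.84 without the 2 lines farthest from the median.

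The laminin receptor subunits are ITGA3, ITGA6 and ITGA7. ITGA3, which is common in epithelia and is also made by fibroblasts in culture, had 714, 1090, 290, 476 and 949 in male lines 1 to 5 and 709, 1243, 518, 1078, 688 and 810 in female lines 1 to 6 by 884_at. Its probe set 885_g_at had 419, 359, 100, 129 and 723 in the male lines and 316, 633, 208, 485, 427 and 531 in the female lines. Male 3 was lowest and male 4 next to it in both probe sets, which correlated with r = 0.88 and rho = 0.79 (permutation test, adjusted p = 0.00144), and with r = 0.77 without the 2 farthest lines. The standard deviation of 885_g_at over the lines was 0.94 on the log2 scale, larger than that of 97.8% of all tested probe sets.

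ITGA6, the other widely expressed laminin receptor subunit, had 421, 248, 1105, 855 and 624 in male lines 1 to 5 and 273, 498, 527, 345, 602 and 284 in female lines 1 to 6 by 41266_at. The 3 highest lines, male 3, male 4 and male 5, were male, and so was the lowest, male 2. The weaker probe set 33410_at had 120, 162, 248, 304 and 100 in the male lines and 100, 110, 105, 100, 106 and 100 in the female lines. There, 4 of 5 male lines were above every female line, and male 5 was at the floor. The 2 probe sets had r = 0.65 and rho = 0.39 (permutation test of r, adjusted p = 0.0480), which became r = -0.22 without the 2 lines farthest from the median, so the relation rests on those lines.

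ITGA7, the laminin receptor subunit best known from skeletal and smooth muscle, had 1460, 1069, 343, 457 and 2158 in male lines 1 to 5 and 634, 914, 888, 1012, 515 and 2028 in female lines 1 to 6. The highest values, in male 5 and female 6, were those of the 3-year-old and the 2-year-old, and the lowest was 6.29-fold below the highest. Its standard deviation over the lines, 0.87 on the log2 scale, was larger than that of 96.8% of tested probe sets.

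The fibronectin receptor subunit ITGA5 varied less. It had 2302, 1057, 2085, 1893 and 1297 in male lines 1 to 5 and 1622, 1545, 1009, 1320, 1578 and 2078 in female lines 1 to 6, a mean of 1727 ± 529 (SD, n = 5) and 1525 ± 354 (SD, n = 6). Male 1 was highest, the line labelled female 3 was lowest, and the sexes overlapped.

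ITGAV by 39071_at had the smallest spread of the 15 tested integrin probe sets. It had 397, 492, 406, 524 and 411 in male lines 1 to 5 and 510, 310, 391, 356, 427 and 489 in female lines 1 to 6, a spread of 1.69-fold between the extremes. That standard deviation of 0.21 on the log2 scale was larger than that of only 4.63% of tested probe sets. The second probe set 2032_s_at had 541, 426, 440, 238 and 336 in the male lines and 534, 451, 281, 336, 357 and 521 in the female lines, and it did not follow the first (r = -0.06, rho = 0.09, permutation test, adjusted p = 0.867). Male 4, for example, was the highest line by 39071_at and the lowest by 2032_s_at, so the order of lines for ITGAV depends on the probe set.

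Of the beta subunits, ITGB1, the partner of most alpha subunits here, had 2498, 5180, 6139, 4208 and 6801 in male lines 1 to 5 and 5277, 3031, 4925, 8336, 5576 and 3532 in female lines 1 to 6. Female 4 was highest and male 1 lowest, and the means of 4965 ± 1692 (SD, n = 5) in male lines and 5113 ± 1871 (SD, n = 6) in female lines differed by less than either spread. The other ITGB1 probe set, 2055_s_at, was at the floor on all 12 arrays.

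ITGB5, a vitronectin receptor subunit, was bright by both of its probe sets. The probe set 2058_s_at had 5751, 5987, 8951, 11459 and 5413 in male lines 1 to 5 and 6300, 10485, 13949, 9007, 6875 and 5829 in female lines 1 to 6. The probe set 39754_at had 2815, 4049, 5885, 6029 and 3505 in the male lines and 5501, 6311, 8166, 5862, 5629 and 4141 in the female lines. The line labelled female 3 was highest in both, and the probe sets ran together with r = 0.87 and rho = 0.95 (permutation test, adjusted p = 0.00144), and r = 0.80 without the 2 farthest lines.

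ITGB3, a beta subunit best known from platelets and osteoclasts, was close to the floor. The probe set 37952_at had 172, 124, 195, 198 and 103 in male lines 1 to 5 and 102, 166, 304, 100, 182 and 193 in female lines 1 to 6. The probe set 1176_at had 135 to 158 in the male lines and 100 to 170 in the female lines, and the 2 probe sets did not correlate detectably (r = 0.09, rho = 0.21, permutation test, adjusted p = 0.867). The line labelled female 3 was highest by 37952_at and female 1 by 1176_at, and the order of lines was not the same by both.

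As a group the tested integrin probe sets had a median standard deviation of 0.49 on the log2 scale over the 11 lines, against 0.41 over all 7541 tested probe sets. Each line had 1 array, so no error of a line's own value is known and neighbours in the order of lines cannot be told apart.

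Male and female lines were compared first, a comparison that asks whether a subunit's level goes with the sex of the donor. The lines of both sexes overlapped for all 15 tested integrin probe sets. In limma's test over 7541 probe sets with Benjamini-Hochberg adjustment, 0 of 15 integrin probe sets passed the threshold of 0.05, against a background of 0% of all probe sets. At an unadjusted p under 0.05 there was 1 of 15, against 5.26% of all probe sets (397).

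That probe set was 33410_at of ITGA6, higher in male lines by 0.68 on the log2 scale (SE 0.27, limma adjusted p = 0.890). Its mean log2 value was 6.71 in female lines, under the filter level of 6.80, and 7.40 in male lines. It thus passed the filter through its male lines. With a floor of 200 its difference was 0.19, and a filter at the 60th percentile left it out. The brighter 41266_at of ITGA6 had a male minus female difference of 0.51 (SE 0.36, limma adjusted p = 0.890), with means of 651 ± 341 (SD, n = 5) in male lines and 422 ± 139 (SD, n = 6) in female lines. Without the line labelled female 3 the differences of 33410_at and 41266_at were 0.69 and 0.59. Leaving out each line in turn moved that of 41266_at between 0.27 without male 3 and 0.84 without male 2. ITGB5 pointed the other way by 39754_at, with a difference of -0.45 (SE 0.25, limma adjusted p = 0.890), and by 2058_s_at, with -0.23 (SE 0.27). Without the line labelled female 3 these became -0.34 and -0.08.

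Genes of the cell cycle pointed the same way as ITGA6. All 20 genes of a list for proliferation had a difference above 0, against 48.8% of all probe sets, with a median of 0.73. Of these, 8 had an unadjusted p under 0.05, against 5.26% of all, while 0 passed the adjusted threshold. Their summed intensity ran from 9131 to 27663 in male lines and from 6695 to 18109 in female lines. Over the 11 lines ITGA6 correlated with the mean of that list with r = 0.66 and rho = 0.50 (permutation test of r, p = 0.0300), which did not pass adjustment over 45 such relations. With the same mean ITGA1 had r = -0.62 and rho = -0.64 (permutation test of r, p = 0.0449). ITGA5 had r = 0.62 and rho = 0.57 (permutation test of r, p = 0.0464), and neither passed adjustment. Without the 2 lines farthest from the median, r was 0.83 for ITGA6, -0.82 for ITGA1 and 0.38 for ITGA5. The part of proliferation in the values of ITGA6, ITGA1 and ITGA5 was not tested.

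The remaining subunits lay between -0.62 for ITGA3 by 885_g_at (SE 0.47) and 0.14 for ITGA5 (SE 0.24) in the male minus female difference on the log2 scale. ITGA7 and ITGB1 were nearest to 0, with -0.03 (SE 0.46) and -0.04 (SE 0.29). With SEs of this size, differences that are not detected here are not shown to be absent.

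**Figure D2:**
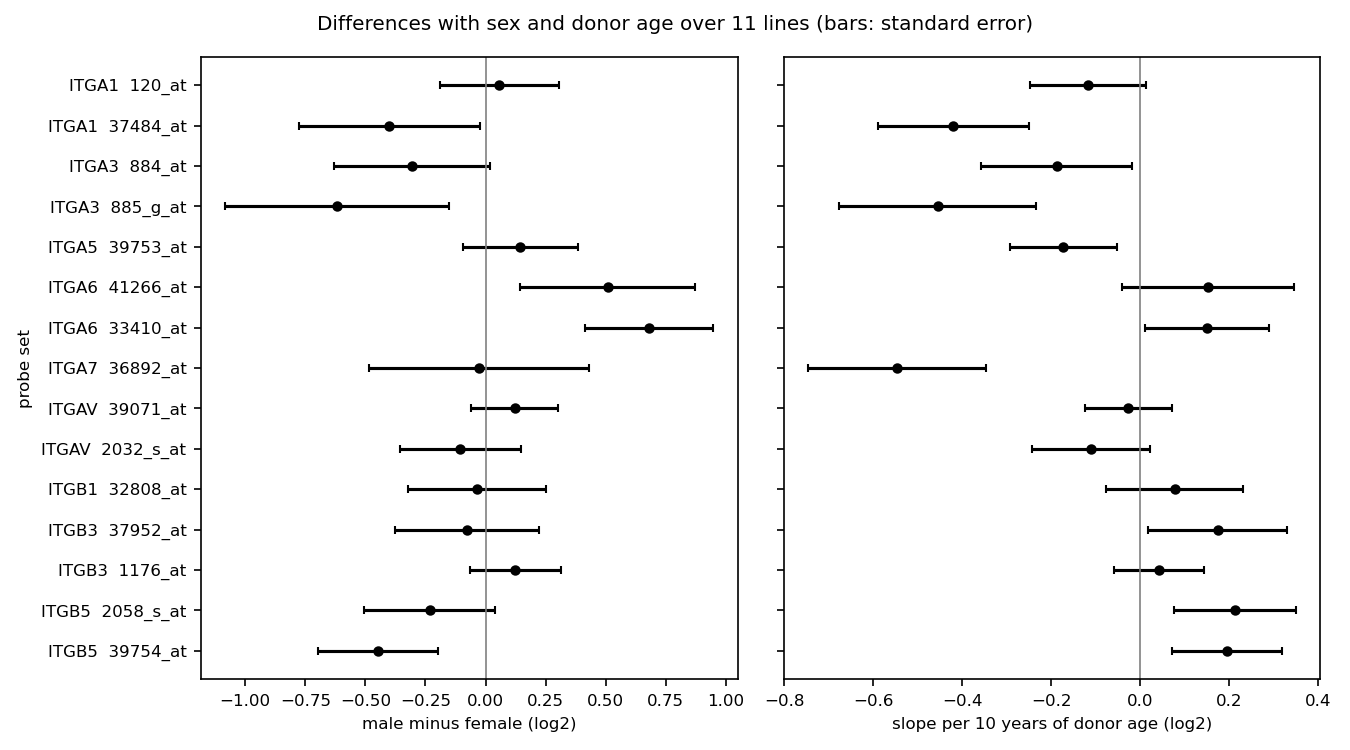
Male minus female difference (left) and slope per 10 years of donor age (right), both on the log2 scale, for the 15 tested integrin probe sets over 11 lines, with bars of 1 standard error. ITGA6 has the highest differences with sex, at 0.51 and 0.68, and ITGA7 the lowest slope with age, at -0.55, and none passed the adjusted threshold.

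Donor age was fitted as a slope with sex as a covariate, to see whether a subunit goes with the age of the animal. None of the 15 integrin probe sets passed the adjusted threshold, against 0% of all probe sets, and 2 had an unadjusted p under 0.05, against 5.44% of all (410). These were ITGA7, with a slope of -0.55 per 10 years on the log2 scale (SE 0.20, limma adjusted p = 0.850), and 37484_at of ITGA1, with -0.42 (SE 0.17, limma adjusted p = 0.860). Leaving out the line labelled female 3 gave -0.69 for ITGA7 and -0.54 for ITGA1. Leaving out male 5 gave -0.41 for ITGA7 and -0.26 for ITGA1.

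In both, the 2 youngest donors stood above the rest. The 3-year-old male 5 and the 2-year-old female 6 had 2158 and 2028 for ITGA7, against 343 to 1460 in the 9 lines of adults, and 384 and 386 for ITGA1 by 37484_at, against 100 to 322 in adults, so these lines did not overlap with the adults. That held for 2 of the 15 integrin probe sets, against 3.06% of all tested probe sets, and for 0 in the opposite direction, against 1.99%. Among the adults alone the slopes were -0.0014 for ITGA7 and 0.03 for ITGA1. The other ITGA1 probe set, 120_at, had a slope of -0.12 (SE 0.13), and there both young lines lay inside the range of the adults.

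ITGA3 had slopes of -0.19 (SE 0.17) by 884_at and -0.45 (SE 0.22, limma adjusted p = 0.901) by 885_g_at. ITGB5 had positive slopes of 0.21 (SE 0.14) and 0.19 (SE 0.12), and its highest line, labelled female 3, was that of the oldest donor. Without that line the slopes were 0.12 by 2058_s_at and 0.14 by 39754_at. In a limma test of whether the slope differs between the sexes, each of the 15 integrin probe sets had an adjusted p of 0.999. The lowest unadjusted p was 0.113, for ITGAV by 2032_s_at. The share over all probe sets is not known for this test, so the 15 are not set against a background.

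Of 16 other integrin subunits, 14 had a probe set and 8 genes were tested, and none passed for sex or age. ITGA8, an RGD-binding partner of ITGB1, had 100, 233, 100, 125 and 319 in male lines 1 to 5 and 112, 100, 100, 100, 100 and 400 in female lines 1 to 6. As with ITGA7, male 5 and female 6 were its highest lines, and its slope with age was -0.55 (SE 0.15, limma adjusted p = 0.826). ITGA8 was at the floor on 6 of the 11 standard arrays, and adults other than male 2 had at most 125. Of the subunits known from leukocytes, ITGAL, ITGAM and ITGB2 were at the floor on 10, 11 and 10 of the 11 standard arrays. ITGAX, ITGB7 and ITGAE were at the floor on 1, 2 and 3 of them, and reached 470, 308 and 211.

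The matrix and the adhesion plaque were read from lists. Of 25 genes of the plaque, 18 were on the array and tested. With donor age, 14 of the 18 had a negative slope and 4 a positive one, while 49.5% of all tested probe sets had a positive one. The median was -0.09 against -0.0017 over all tested probe sets. In limma's test 0 passed, and 3 of 18 had an unadjusted p under 0.05, against 5.44% of all. VCL, which encodes the actin linker vinculin, had -0.47 (SE 0.13, limma adjusted p = 0.826), with 7739 in male 5 and 7223 in female 6 against 2481 to 5101 in adults. FERMT2, a kindlin, had -0.35 (SE 0.12, limma adjusted p = 0.850), and PARVB, a parvin, had a positive slope of 0.27 (SE 0.12, limma adjusted p = 0.886).

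Of 25 genes for matrix ligands, 21 were tested, 14 with a negative slope and 7 with a positive one, against 49.5% positive over all. In limma's test 0 passed, and 2 of 21 had an unadjusted p under 0.05, against 5.44% of all. COL4A1 and COL4A2, the chains of basement membrane collagen, had slopes of -1.09 (SE 0.24) and -0.76 (SE 0.21), both with a limma adjusted p of 0.826. For sex, 0 of 18 plaque genes and 0 of 21 ligand genes passed. In limma's test 0 of them had an unadjusted p under 0.05, against 5.26% of all. Of 12 tested membrane partners of integrins, such as tetraspanins and syndecans, 0 passed in limma for either comparison, with 0 at an unadjusted p under 0.05.

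ITGA7 was set against markers of smooth muscle, a comparison added after its values were seen. Its level over the 11 lines correlated with the mean of ACTA2, CNN1, TAGLN, MYH11 and SMTN with Pearson's r = 0.87 and Spearman's rho = 0.89 (permutation test, p = 0.00073, adjusted p = 0.0329 over 45 relations of 9 subunits with 5 measures of the arrays). It was the only one of the 45 to pass. Without the 2 lines farthest from the median r was 0.76, and leaving out each line in turn gave 0.82 to 0.91.

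Of these markers, ACTA2 and CNN1 were highest in the same young lines. ACTA2, the actin of smooth muscle and of activated fibroblasts, had 6073, 8966, 885, 2057 and 17653 in male lines 1 to 5 and 4403, 7432, 1729, 15216, 1524 and 17158 in female lines 1 to 6. CNN1, the actin binder calponin, had 440 in male 5 and 1156 in female 6, against 100 to 430 in adults. Its slope with age was -0.78 (SE 0.24, limma adjusted p = 0.826). The other 3 did not share that order. TAGLN was highest in male 2 (slope -0.17), SMTN in female 5 (slope 0.05) and MYH11 in the line labelled female 3 (slope 0.11). All 6 smooth muscle markers were on the array and 5 were tested, none was at the floor on all 11 standard arrays, and their summed intensity ran from 14297 to 38938 in male lines and from 14097 to 42368 in female lines. Their part in the slope of ITGA7 with age was not tested. Of 6 skeletal muscle markers on the array, 2 were tested. ACTA1 was at the floor on 8 of the 11 standard arrays, with 188 in male 5, 343 in female 6 and 100 to 135 in adults. Its slope with age was -0.45 (SE 0.12, limma adjusted p = 0.826). MYOG had 100 to 550 and a slope of -0.20 (SE 0.20), and both young lines lay inside its range in adults. The part of these markers in the ITGA7 values was not tested.

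**Figure D3:**
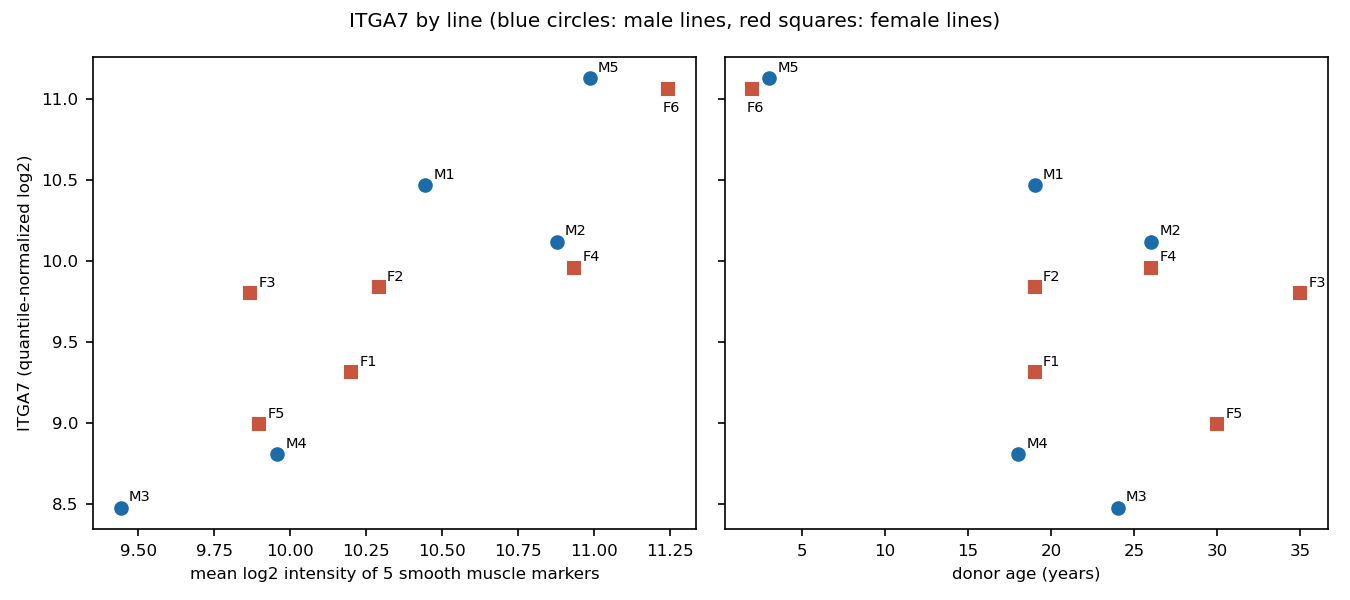
ITGA7 as quantile-normalized log2 intensity in 11 lines (circles, male lines M1 to M5; squares, lines labelled female F1 to F6), against the mean log2 intensity of 5 smooth muscle markers (left) and donor age in years (right). M5 and F6, from donors of 3 and 2 years, are the 2 highest points in both panels, and r in the left panel is 0.87.

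Other subunits stood in weaker relation to the same markers and none passed adjustment over the 45. ITGA3 had r = 0.77 and rho = 0.75 with the smooth muscle mean (permutation test of r, p = 0.00503), and ITGA6 had r = -0.68 and rho = -0.54 (permutation test of r, p = 0.0227). ITGA1 had r = -0.74 and rho = -0.72 with the share of probe sets at the floor of an array (permutation test of r, p = 0.00861), a measure of how much of an array was dim. Its r without the 2 farthest lines was -0.62. ITGAV had r = -0.61 and rho = -0.75 with that share (permutation test of r, p = 0.045), and r = -0.79 without the 2 farthest lines. ITGB3 had r = -0.61 and rho = -0.71 with the smooth muscle mean (permutation test of r, p = 0.0480). Of all 45 relations, 9 had an unadjusted p under 0.05 in the permutation test of r. The part of dim arrays in the order of lines for ITGA1 and ITGAV was not tested.

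Partners of the same receptor were then compared over the lines, since the subunits function only as pairs. Of 9 known pairs among the 10 subunits, 8 could be compared and the pair of ITGA2 and ITGB1 could not. None of the 8 correlated detectably, with a permutation adjusted p of 0.806 for each and 0 with an unadjusted p under 0.05. ITGA5 and ITGB1, the classical fibronectin receptor, had r = -0.48 and rho = -0.39 (permutation test, p = 0.134). ITGA1 and ITGB1 had r = 0.38 and rho = 0.21, and r was 0.07 without male 1. ITGAV and ITGB5 had r = -0.30 and rho = -0.23, and r lay between -0.57 without male 4 and -0.07 without female 2. With 11 lines and values near the floor, weaker relations are not detectable.

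Across all 36 pairs of the 9 subunits, given as a description with no test, 13 correlations were positive and 23 negative, from -0.67 to 0.65. The laminin receptor subunits ITGA3 and ITGA7 ran together with r = 0.65, while ITGA3 and ITGA6 ran opposite with r = -0.67, and r was -0.62 without the 2 farthest lines. ITGA3 also ran opposite to ITGB3 with r = -0.64, and ITGB3 and ITGB5 ran together with r = 0.63. All pairs share the same 11 arrays and their normalization.

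**Figure D4:**
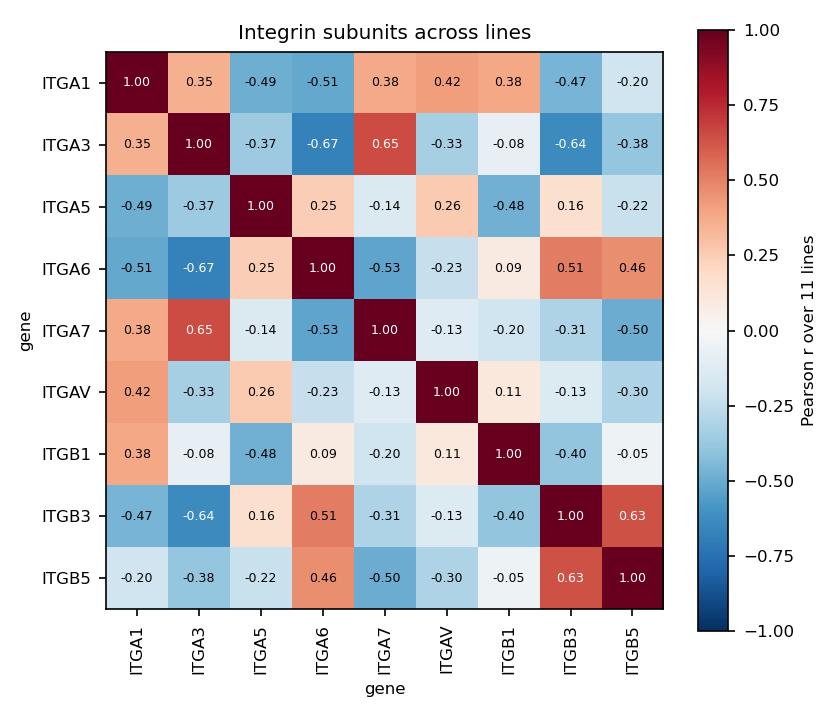
Pearson's r over 11 lines between quantile-normalized log2 intensities of 9 integrin subunits, each by 1 probe set, with red for positive and blue for negative values. The lowest value is -0.67 for ITGA3 with ITGA6 and the highest is 0.65 for ITGA3 with ITGA7.

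Genes outside the family whose pattern was most like that of a subunit were sought among 5499 probe sets, by Pearson's r over the 11 lines and with no test. For ITGA7 it was KCNMB1, a potassium channel subunit of smooth muscle, with r = 0.91 and rho = 0.92. For ITGA6 it was SMARCA2, a chromatin remodelling ATPase, with r = 0.93 and rho = 0.92, and for ITGA3 it was AGTR1, a receptor for angiotensin, with r = 0.90 and rho = 0.85.

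For ITGA1 the most alike gene was EFNA5, an ephrin, with r = 0.91 and rho = 0.90. For ITGB5 it was CSTA, a protease inhibitor, with r = 0.91 and rho = 0.85, for ITGA5 METAP1 with r = 0.85 and rho = 0.80, and for ITGAV EIF5 with r = 0.85 and rho = 0.75. ITGB3 was most like PIM2, a kinase, with r = 0.86 and rho = 0.74. For ITGB1, PLXNC1 had r = 0.87 but rho = 0.51, and r was 0.48 without the 2 farthest lines. With so many genes compared over so few lines, high values occur in any list of this kind.

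The second culture of male 2 shows the subunits in cells that had not filled the dish, against the standard harvest of the same line. With 1 array for each culture there is no replicate and no test, and differences are of quantile-normalized log2 values, 50% confluence minus standard. Among the 15 tested integrin probe sets, 1 was at least 2-fold higher at 50% confluence, against a background of 6.96% of all 7541, and 1 was at least 2-fold lower, against 7.24%. The median difference was -0.12, against 0 over all tested probe sets, and 4 of 15 were positive, against 47.8% of all. On the values as deposited 6 of 15 were positive, against 41.2% of all, and with each array centred on its median 10 of 15 were, against 71% of all, so the share of positive values depends on the scaling.

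ITGA6 and ITGA3, both of laminin receptors, were the subunits past 2-fold, in opposite directions. ITGA6 by 41266_at had 587 at 50% confluence and 248 at standard harvest, a difference of 1.38 (2.60-fold). ITGA3 by 884_at had 471 at 50% confluence and 1090 at standard harvest, a difference of -1.25 (2.38-fold lower), and by 885_g_at it had 175 and 359, a difference of -0.78. ITGA7 had 911 at 50% confluence and 1069 at standard harvest, a difference of -0.35. The weaker ITGA6 probe set was at 163 at 50% confluence and 162 at standard harvest, a difference of 0.40 after quantile normalization and 0.009 as deposited.

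ITGA5, the fibronectin receptor subunit, had 2019 at 50% confluence and 1057 at standard harvest, a difference of 0.84. ITGA1 had 157 and 325 by 120_at, a difference of -0.76, and 190 and 268 by 37484_at, a difference of -0.22. ITGAV had 302 at 50% confluence and 492 at standard harvest by 39071_at, a difference of -0.57, and 375 and 426 by 2032_s_at, a difference of -0.06. Here too the ITGAV probe sets gave unlike sizes.

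Of the beta subunits, ITGB1 and ITGB5 differed by at most 0.26 between the cultures. ITGB1 had 5423 at 50% confluence and 5180 at standard harvest, a difference of -0.04. ITGB5 had 6177 and 5987 by 2058_s_at, a difference of 0, and 5106 and 4049 by 39754_at, a difference of 0.26. ITGB3 was at the floor of 100 at 50% confluence by both probe sets, with 124 and 136 at standard harvest, so its differences are only bounds.

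None of the 15 tested integrin probe sets left the range of the 11 standard arrays at 50% confluence, nor did the 7 others. Of all tested probe sets, 4.76% lay below that range and 6.59% above it. The 7 others, and some tested probe sets of ITGA1, ITGA3, ITGA6 and ITGB3, had the floor as the lower end of their range. Those could not fall below it, so the lack of integrin values below the range is partly fixed by the floor. The standard culture of male 2 stood at or near an edge of the 11 lines for some of the 15 tested probe sets. It was the lowest line for ITGA6 by 41266_at and the highest for ITGA1 by 120_at, and it was next to lowest for ITGA5 and next to highest for ITGA3 by 884_at. By 885_g_at of ITGA3 it lay inside the other lines, with 359 against a median of 419.

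**Figure D5:**
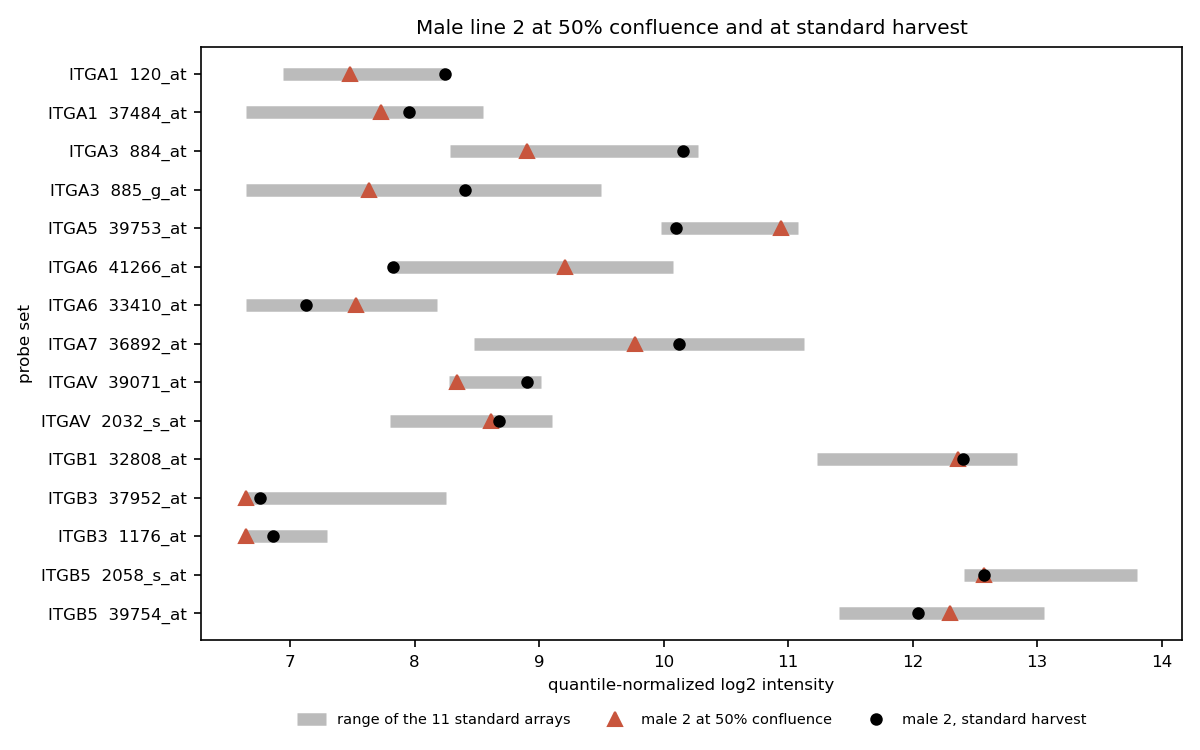
Quantile-normalized log2 intensity of the 15 tested integrin probe sets in male 2 at 50% confluence (triangles) and at standard harvest (circles), with the range of the 11 standard arrays as grey bars. All triangles lie within the bars, ITGA6 by 41266_at is 1.38 higher and ITGA3 by 884_at 1.25 lower at 50% confluence, and the triangle and circle of ITGB1 and of ITGB5 by 2058_s_at nearly coincide.

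The scaling moves these sizes, because the array at 50% confluence was the dimmest, with 49.2% of probe sets at the floor, and the standard array of male 2 the least dim, with 40.1%. Centring each array on its median shifted the median of all tested probe sets to 0.44. Relative to that shift, ITGA6 by 41266_at had 1.30, ITGA5 0.99 and ITGA3 by 884_at -1.15, so their directions held. By their centred values, unadjusted for the shift, ITGA5 was past 2-fold, at 1.43, and ITGA3 by 884_at was not, at -0.72. ITGB1, at -0.04 under quantile normalization, had 0.12 relative to the shift, and its direction is not settled.

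Beside the subunits, genes for proliferation had mostly higher values in the sparse culture. Of 20 genes, 19 had a positive difference and 10 were at least 2-fold higher, with a median of 1.06, and their summed intensity was 17394 at 50% confluence and 9131 at standard harvest. The part of the proliferation genes in the differences of ITGA6, ITGA3 and ITGA5 was not tested.

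The ligands and the plaque were read from the same lists. Of 21 matrix ligands, 4 were at least 2-fold higher at 50% confluence, against 6.96% of all probe sets, and 2 at least 2-fold lower, against 7.24%, with COL3A1 at 1.44 and TNC at 1.28 among the higher ones. MFGE8, an RGD-bearing ligand of ITGAV receptors, was lower, at -1.80. SPP1, which encodes osteopontin, had 215 at 50% confluence and stood at the floor of 100 at standard harvest. Of 18 plaque genes, 0 were 2-fold higher and 1, SRC, was lower, at -1.04, while FERMT2 had 0.81. CD151, the tetraspanin partner of laminin-binding integrins, had 1632 at 50% confluence and 3200 at standard harvest, a difference of -1.06. Of 12 membrane partners it was the only one at least 2-fold lower, and none was 2-fold higher.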

How the data were processed

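Total RNA of 12 cultures was hybridised, 1 array each. The authors deposited intensities, linear whole numbers per probe set with a floor of 100 in all files; for the software and scaling, the sources used here give nothing. Symbols came from the platform annotation, and a RefSeq gene table (NHGRI_mGorGor1-v2.1), used for names and neighbours only, held all 10 members.

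Array medians of log2 intensity ran from 6.71 to 7.21, so arrays were quantile normalized. Of 12625 probe sets, 67 controls were left out and 7541 with a mean log2 value above the 40th percentile were tested with limma 3.58.1 in R 4.3.3 (lmFit, eBayes, Benjamini-Hochberg). Correlations used 100000 permutations, two-sided. The fits were tested on simulated arrays. The main probe set of a gene is the tested one with the highest mean. From lists, up to 4 genes with the smallest p or largest difference were named. Members and lists were chosen with earlier results of these data known. Replicate numbers only name lines. Alternatives were other scalings, floors, filters, covariates and array weights, adults only, and each line left out. The number of arrays limits the precision.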

Additional observations from a re-analysis of the deposited data

How the results depend on the processing

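No integrin probe set passed the adjusted threshold for sex or age under any alternative run, and no pair of partners did. Over all probe sets, 2 passed for sex with arrays centred on their medians, and 0 to 1 when each line was left out, the 1 being without the line labelled female 3. The count of integrin probe sets differing with confluence, 2 at 2-fold, was 4 on the values as deposited (1 higher, 3 lower) and 5 at 1.5-fold (2 higher, 3 lower). With centred arrays it was also 2, both higher, with ITGA5 in place of ITGA3. Over all 7541 tested probe sets, the split of 525 higher and 546 lower became 376 and 850 as deposited and 1303 and 231 with centred arrays. At 1.5-fold it was 1409 higher and 1411 lower. No paired analysis was possible because the replicate numbers were given here in accession order and pair nothing.

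Directions turned in the cases given here, some with main values near 0 and some not. Among those that turned were the main age slopes of -0.42 for ITGA1 by 37484_at and -0.45 for ITGA3 by 885_g_at. Both turned in fits without the young donors. For sex, ITGA1 by 120_at was -0.10 with the 50% confluence array in place of male 2, and among adults ITGAV by 2032_s_at was 0.013 and ITGB3 by 37952_at 0.090. Age slopes among adults were 0.095 for ITGA1 by 120_at, 0.035 by 37484_at and -0.039 for ITGA6 by 33410_at. With the line labelled female 3 also left out, the slopes were 0.022 for ITGA1 by 120_at, 0.080 for ITGA3 by 885_g_at, -0.10 for ITGA6 by 33410_at, -0.20 and -0.028 for ITGB3 by 1176_at and 37952_at, and -0.29 and -0.080 for ITGB5 by 2058_s_at and 39754_at. ITGAV by 39071_at had 0.0018 with centred arrays, and ITGB1 had -0.12 as adults minus young. For partners, ITGAV with ITGB1 had r = -0.28 by the mean of probe sets and ITGAV with ITGB3 r = 0.052 with centred arrays. The causes were not tested.

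Leaving out each line, sex differences ran from -0.11 to 0.22 for ITGA1 by 120_at, -0.36 to 0.30 for ITGA7, -0.24 to 0.082 for ITGAV by 2032_s_at, -0.17 to 0.21 for ITGB1 and -0.21 to 0.11 for ITGB3 by 37952_at. Age slopes ran from -0.076 to 0.052 for ITGAV by 39071_at, -0.019 to 0.25 for ITGB1 and -0.0046 to 0.081 for ITGB3 by 1176_at. Values of r ran from -0.23 to 0.12 for ITGA3 with ITGB1, -0.042 to 0.18 for ITGA6 with ITGB1, -0.29 to 0.26 for ITGAV with ITGB1 and -0.28 to 0.023 for ITGAV with ITGB3. Signal near the floor limits ITGA1, ITGB3 and the weaker probe sets of ITGA6 and ITGA3.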
